A study of Mus musculus with 18 samples.

Results

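Tail fibroblasts recovered 3 days after transplantation under the kidney capsule (TFs) were compared with tail fibroblasts of the same preparation kept in culture (TFc). The comparison holds the 6 libraries whose sample titles name tail fibroblasts, 3 TFs and 3 TFc, of 18 in the series, and all genes of the count table were examined in them. The other 12 libraries are transplanted and cultured fibroblasts of heart (HFs and HFc) and kidney (KFs and KFc), 3 libraries each, and they entered the estimate of the spread. The donors of all groups were labelled as 10-week-old male Rosa mT/mG mice on a C57BL/6 background, which carry a membrane-bound tdTomato reporter in every cell, so that TFs and TFc share the genotype. All cells had first grown in culture for 10 days. For TFs, between 400000 and 500000 cells on gelatin foam were placed under the kidney capsule of syngeneic recipients aged 10 to 11 weeks, and live CD45-;TdTomato+ cells were sorted 3 days later. TFc were the cells left over, replated on plastic, and the sources used here do not state whether they were sorted. The cells were isolated from minced tissue and not from 1 clone. The contrast joins the new site, the surgery, the dissociation from the kidney and the sort, which cannot be told apart.

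Fibroblasts build and remodel connective tissue. On stiff plastic with serum they take on features of the myofibroblast, with actin stress fibres, contractile proteins and matrix held under tension. In wounds they also act as sentinels, which answer cytokines and microbial products through the transcription factor NF-kB and interferons through STAT and IRF factors, and which recruit leukocytes through chemokines. Fibroblasts of the tail carry the posterior *Hox13* genes as a mark of their position along the body axis.

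The library totals were 17927838 to 21877931 counts in TFs and 21616781 to 32245168 in TFc, and 16436 to 16873 and 15842 to 16394 genes had more than 3 counts. Levels are given as CPM (counts per 1000000 after TMM scaling), and 3 counts, taken as the floor of detection in each library, corresponded to 0.0890 to 0.160 CPM. This floor covers counting error only. The fibroblast markers *Pdgfra*, *Pdgfrb*, *Thy1* and *Vim* were present in all 6 libraries. *Hoxb13* had 30.4 to 68.1 CPM and *Hoxa13* 6.47 to 12.6 CPM in the tail libraries, against at most 0.0728 and 0.0364 CPM in any heart or kidney library. *Hoxd13* was at or under the floor in every tail library. *Hoxc13* set the tail apart only within each condition. In culture it had 36.8 to 42.6 CPM in TFc, 2.06 to 2.99 CPM in HFc and 10.7 to 13.0 CPM in KFc. After transplantation it had 8.13 to 9.07 CPM in TFs, at most 0.308 CPM in HFs and 1.00 to 1.17 CPM in KFs. The TFs libraries thus lay below those of KFc. The 4 Y-linked genes examined summed to 175 to 205 CPM in the tail libraries, and *Xist* reached 0.363 CPM. KFs replicate 3, with 1491 CPM of *Xist* and 0.721 CPM of the Y-linked genes, went against the label of male donors, and comparisons with the kidney response are given with and without it. Mitochondrially encoded genes took 10.3 to 11.9% of the counts in TFs and 7.30 to 7.69% in TFc.

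Transplantation was accompanied by a broad change, in which inflammatory, interferon and hypoxia genes rose and contractile, sterol synthesis and amino acid synthesis genes fell. Of 16577 genes tested, 2743 (16.5%) were called at an adjusted p of 0.05 with a log2 fold change above 1 or below -1 (quasi-likelihood test in edgeR, Benjamini-Hochberg adjusted across every gene tested), 1827 (11.0%) higher and 916 (5.53%) lower in TFs. The adjusted p alone was passed by 3083 genes with a higher and 3350 with a lower level, so that the excess of rises lay in changes beyond a log2 fold change of 1. A log2 fold change above 4 was seen in 461 genes and one below -4 in 39. Of the rises, 385 were from a level at or under the floor in all TFc libraries, and their folds are given as lower bounds against the mean floor of that group. The median log2 fold change over all genes tested was 0. Counts of list members in the following paragraphs are to be read against the shares of all genes tested, 11.0% higher and 5.53% lower. The test against the fold change limit itself (edgeR's glmTreat) called 757 genes higher and 306 lower.

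**Figure D1:**
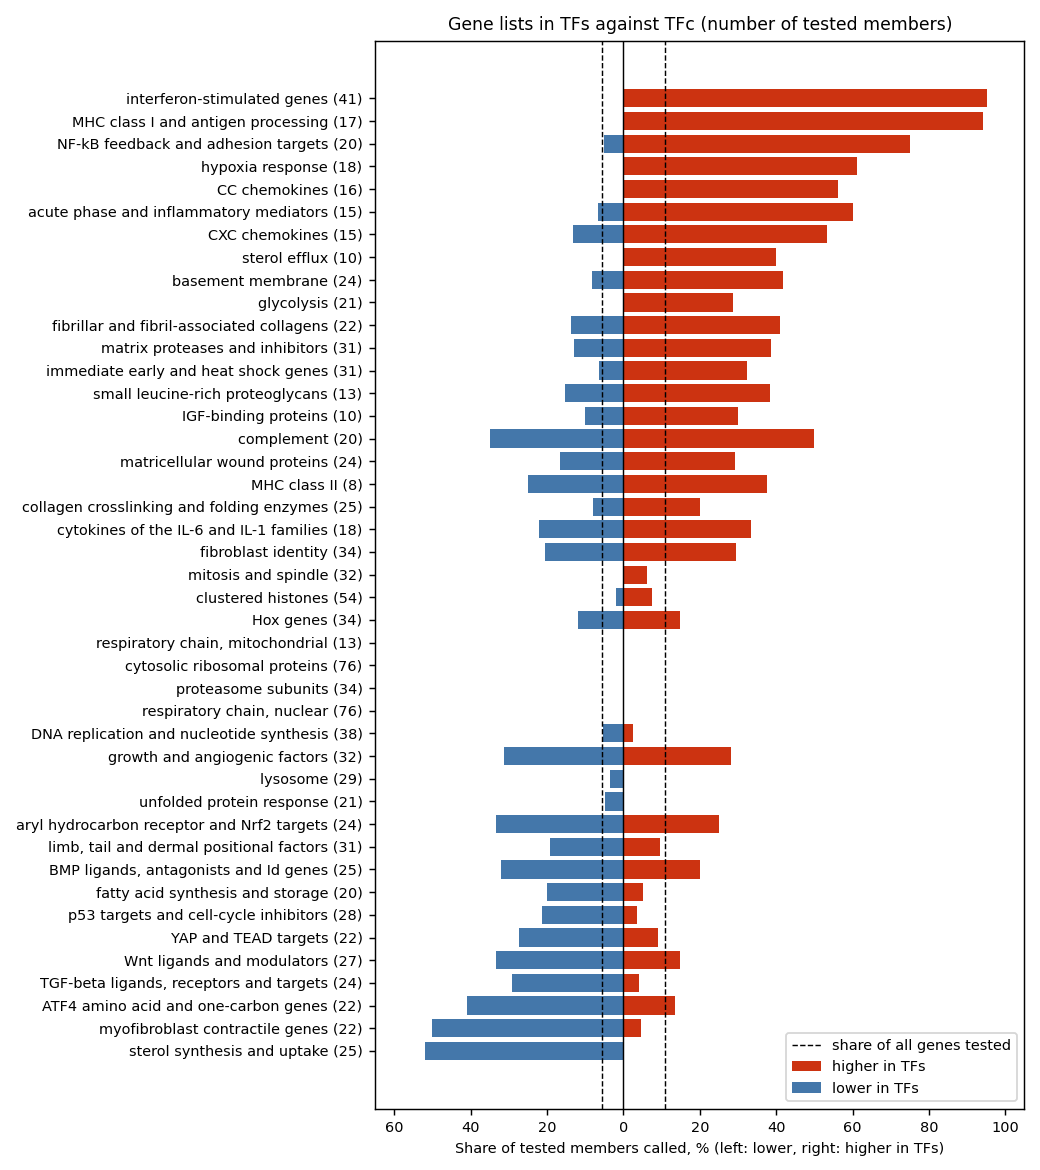
Share of the tested members of each gene list that were called higher (right, red) or lower (left, blue) in TFs than in TFc, in percent, with the number of tested members in brackets and dashed lines at the shares of all genes tested, 11.0% and 5.53%. Interferon-stimulated and MHC class I genes lie at the top with 95.1% and 94.1% higher, and sterol synthesis and contractile genes at the bottom with 13 of 25 and 11 of 22 lower.

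Genes of the host kidney's tubule cells stood among the largest rises. Of the 12 protein-coding genes with the largest rise at 5 CPM or more without overlap of the groups, *Kap*, *Slc27a2*, *Pck1*, *Cyp2j5*, *Fut9* and *Miox* are on the list of proximal tubule markers and *Umod*, which encodes uromodulin, on that of the loop of Henle and later segments. The predicted gene *Gm10600* belongs to no list. *Kap*, the androgen-regulated protein of the proximal tubule, had 0 CPM in every TFc library and 22.4, 21.8 and 24.97 CPM in TFs, at least 204-fold higher. *Umod* had 0 CPM in every TFc library and 22.9, 10.3 and 5.51 CPM in TFs, at least 114-fold higher. *Saa3*, *Nos2* and *Ccl5* were also among the 12 and are described with their groups. TFs replicate 1 had the highest *Umod* and replicate 3 the highest *Kap*. Over the whole proximal tubule list, 31 of 33 tested genes were higher and 0 lower, and its summed level was 330.1 to 347 CPM in TFc and 755 to 1300.0 CPM in TFs, with 20 of its 34 genes at or under the floor in all TFc libraries. For loop, distal tubule and collecting duct these values were 8 of 14 genes higher, 2.28 to 3.29 CPM and 36.6 to 92.6 CPM, with 15 of 19 genes at the floor in TFc. *Gpx3* and *Ass1*, which many tissues express, held most of the proximal tubule sum in TFc. TFs replicate 1 had the highest sum of both lists. These sums moved with the groups compared throughout, and their part in the other results was not tested.

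Markers of blood cells and vessels moved in different directions. Of the endothelial genes, 6 of 17 were higher (35.3%) and 1 lower (5.88%, near the 5.53% of all genes tested). Their sums were 112 to 127 CPM in TFc and 124 to 142 CPM in TFs. *Pecam1*, the adhesion molecule of endothelium and platelets, had 26.8, 21.3 and 20.6 CPM in TFc and 27.1, 29.7 and 25.3 CPM in TFs and did not pass the test. *Plvap*, which marks fenestrated vessels, had 0 CPM in every TFc library and 2.67, 2.04 and 1.87 CPM in TFs, at least 19.5-fold higher. Macrophage genes were present in culture and fell, with 10 of 23 lower, 1 higher and sums of 222 to 254 CPM in TFc and 56.8 to 65.5 CPM in TFs. *Csf1r*, the receptor that macrophages need for survival, had 24.2, 23.6 and 24.9 CPM in TFc and 5.08, 4.63 and 3.48 CPM in TFs (log2 fold change -2.47, SE 0.22, adjusted p = 7.35e-07). *Ptprc*, which encodes CD45, had 3.83, 5.33 and 5.22 CPM in TFc and 4.12, 3.81 and 3.65 CPM in TFs, with overlapping groups. In bulk RNA, fewer cells of a type and less RNA per cell cannot be told apart. The summed neutrophil list lay at 17.1 to 19.5 CPM in TFs against 7.45 to 12.2 CPM in TFc, and that of T, B and NK cells at 5.89 to 7.17 against 2.32 to 2.52 CPM. Of the other lists, keratinocyte genes summed to 92.9 to 97.3 CPM in TFc and 10.2 to 13.1 CPM in TFs, while *Krt5* and *Krt14*, the keratins of its basal layer, were below the filter. *Dsp*, which keratinocytes share with other cells, made up most of that sum in TFc.

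**Figure D2:**
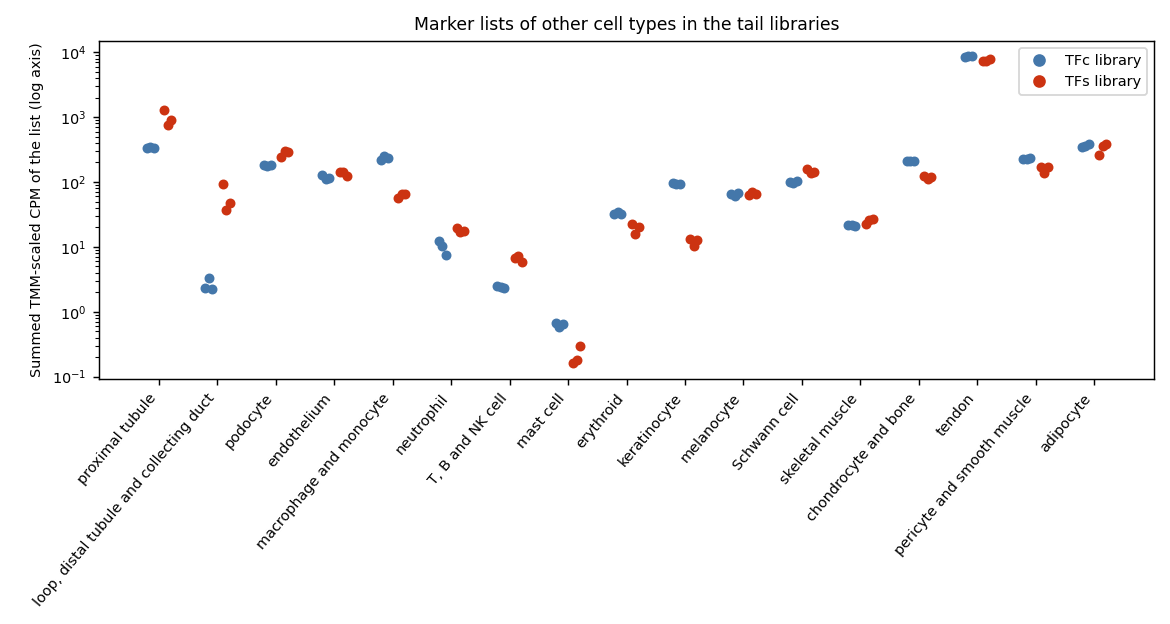
Summed CPM (log axis) of the marker lists of other cell types in each of the 3 TFc (blue) and 3 TFs (red) libraries. Proximal tubule genes rise from at most 347 CPM to at least 755 CPM and macrophage genes fall from at least 222 CPM to at most 65.5 CPM.

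Acute phase and inflammatory genes rose from low levels in culture. On this list 9 of 15 tested genes were higher and 1 lower, with a median log2 fold change of 3.16 against 0 over all genes, or 3.09 with genes at the floor placed at their bound. *Saa3*, a serum amyloid A gene that is induced in stromal cells (ENSMUSG00000040026, GRCm38 chromosome 7, 46711998 to 46715700), had 0, 0.314 and 0.0438 CPM in TFc and 939, 529.7 and 536 CPM in TFs (log2 fold change 12.50, SE 1.69, adjusted p = 7.78e-05). The 3 TFs libraries lay above 500 CPM, and every TFc library lay near the floor. *Nos2*, which encodes inducible nitric oxide synthase, had 0, 0.0784 and 0 CPM in TFc and 145, 74.7 and 24.8 CPM in TFs, at least 724-fold higher, with the TFs libraries spread widely. *Lcn2*, which encodes the iron-siderophore-binding lipocalin 2, had 1.63, 2.78 and 1.93 CPM in TFc and 241, 168 and 144 CPM in TFs (log2 fold change 6.46, SE 0.86, adjusted p = 3.58e-05). *Ptgs2*, the inducible cyclooxygenase, went the other way with 212, 212 and 225 CPM in TFc and 136, 72.9 and 26.4 CPM in TFs (log2 fold change -1.47, SE 0.44, adjusted p = 0.0151), and it was the 1 gene of the list called lower. Without TFs replicate 2 its adjusted p was 0.0509, and without TFc replicate 3 the list had 2 falls.

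Chemokine genes of both classes rose in part. Among CXC chemokines and their receptors 8 of 15 rose and 2 fell, and among CC chemokines 9 of 16 rose and 0 fell, with medians of 1.79 and 1.89 (1.33 with the bounds). *Cxcl1*, a neutrophil attractant, had 6.41, 6.67 and 6.09 CPM in TFc and 105.4, 102 and 45.6 CPM in TFs (log2 fold change 3.72, SE 0.39, adjusted p = 3.57e-06). *Cxcl10*, which attracts T cells and is induced by interferons, had 0, 0 and 0.0438 CPM in TFc and 35.7, 29.2 and 18.2 CPM in TFs, at least 246-fold higher. *Cxcl12*, a homeostatic chemokine of stromal cells, was present in culture at 179.9 ± 4.405 CPM in TFc and 1207 ± 70.6 CPM in TFs (mean ± SD, n = 3 each, log2 fold change 2.75, SE 0.51, adjusted p = 0.000631). The spread within each group was small beside the difference for all of these. *Ccl5*, which attracts T cells and monocytes, had 0, 0.157 and 0 CPM in TFc and 130.3, 161 and 104.9 CPM in TFs (log2 fold change 11.26, SE 0.99, adjusted p = 7.11e-07). *Ccl2*, the main attractant of monocytes, had 56.7, 58.6 and 54.0 CPM in TFc and 337, 441 and 259 CPM in TFs (log2 fold change 2.61, SE 0.27, adjusted p = 3.22e-06), whereas its neighbour *Ccl7* had 92.6, 100.8 and 91.2 CPM in TFc and 166, 205 and 158 CPM in TFs and stayed inside the fold limit (log2 fold change 0.90, SE 0.23, adjusted p = 0.0069). *Cxcl14* was among the genes that fell, with 206, 218 and 199 CPM in TFc and 108, 94.8 and 81.6 CPM in TFs (log2 fold change -1.13, SE 0.20, adjusted p = 0.000419).

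On the list of IL-6 and IL-1 family cytokines and receptors, which also holds *Tnf*, *Tslp* and *Csf1*, 6 of 18 genes rose and 4 fell. The falls were *Il11*, *Clcf1*, *Tslp* and *Csf1*, and their count was 2 without TFs replicate 3. *Il6* had 0, 0.392 and 0.482 CPM in TFc and 14.3, 13.0 and 3.39 CPM in TFs (log2 fold change 5.24, SE 0.67, adjusted p = 2.31e-05). *Il33*, an alarmin stored in the nucleus of stromal cells, had 0.0297, 0.549 and 0.263 CPM in TFc and 24.3, 28.2 and 35.2 CPM in TFs (log2 fold change 6.79, SE 0.58, adjusted p = 4.89e-07). The macrophage growth factor *Csf1* fell, with 1928, 1913 and 1961 CPM in TFc and 503, 736 and 596 CPM in TFs (log2 fold change -1.66, SE 0.15, adjusted p = 1.17e-06), and all 3 TFs libraries lay below 800 CPM. Feedback inhibitors of NF-kB and adhesion molecules under its control gave 15 of 20 genes higher and 1 lower, with a median of 1.94. *Nfkbia*, which encodes the inhibitor IkB-alpha, had 19.0, 20.7 and 19.2 CPM in TFc and 156, 176 and 119 CPM in TFs (log2 fold change 2.93, SE 0.20, adjusted p = 6.14e-08), and *Tnfaip3*, which encodes the inhibitor A20, had 4.92, 6.20 and 3.99 CPM in TFc and 109, 119 and 86.8 CPM in TFs (log2 fold change 4.38, SE 0.24, adjusted p = 1.11e-08). *Icam1*, the ligand of leukocyte integrins, had 27.7, 26.9 and 26.9 CPM in TFc and 93.7, 188 and 99.3 CPM in TFs (log2 fold change 2.23, SE 0.20, adjusted p = 7.56e-07), highest in TFs replicate 2. *Vcam1*, its functional relative, had 310.3, 316 and 328 CPM in TFc and 361, 482 and 366 CPM in TFs, a log2 fold change of 0.34 that did not pass the test.

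Interferon-stimulated genes formed the group with the largest share of rises among the lists of 8 or more tested genes. Of 41 tested, 39 were higher and 0 lower, with a median log2 fold change of 3.72, and *Ifi27* and *Ifi35* were the exceptions. *Isg15*, a ubiquitin-like modifier (ENSMUSG00000035692, GRCm38 chromosome 4, 156199424 to 156200818), had 0.742, 0.941 and 0.131 CPM in TFc and 42.8, 20.7 and 19.2 CPM in TFs (log2 fold change 5.46, SE 0.67, adjusted p = 1.63e-05). *Ifit1*, which binds viral RNA, had 3.92, 2.55 and 2.72 CPM in TFc and 147, 88.8 and 90.8 CPM in TFs (log2 fold change 5.14, SE 0.66, adjusted p = 2.39e-05), and *Irf7*, the factor that amplifies the interferon response, 3.20, 3.02 and 1.67 CPM in TFc and 97.9, 53.1 and 52.99 CPM in TFs (log2 fold change 4.67, SE 0.47, adjusted p = 2.6e-06). *Zbp1*, a sensor of Z-form nucleic acids, had 0.593, 0.314 and 0.219 CPM in TFc and 83.7, 53.3 and 37.4 CPM in TFs (log2 fold change 7.18, SE 0.66, adjusted p = 1.1e-06). For these 4 genes the lowest TFs library lay well above the highest TFc library, and TFs replicate 1 was the highest.

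The MHC class I pathway, which presents peptides on the cell surface, moved the same way in 16 of 17 genes, with 0 lower and a median of 2.24. *H2-K1*, a classical heavy chain, had 54.5, 47.9 and 55.6 CPM in TFc and 559, 468 and 337 CPM in TFs (log2 fold change 3.11, SE 0.21, adjusted p = 6.12e-08), and *B2m*, the light chain of all class I molecules, 96.8, 103 and 106 CPM in TFc and 585, 512 and 402 CPM in TFs (log2 fold change 2.29, SE 0.18, adjusted p = 2.28e-07). *H2-Q6* and *H2-Q7* rose as well, but reads of such near-identical copies can be divided between them by the counting. MHC class II genes stayed low, with a summed level of 15.9 to 25.4 CPM in TFs and 13.1 to 14.4 CPM in TFc, and 3 of 8 were higher and 2 lower. *Cd74*, the invariant chain, had 0.148, 0 and 0.0438 CPM in TFc and 5.03, 10.2 and 4.62 CPM in TFs (log2 fold change 6.43, SE 1.18, adjusted p = 0.000538).

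The promoters of some of these genes are shown because some of the lists hold short sequence patterns next to their start sites more often than promoters at large. Several lists are made up of genes known to respond to a given signal. Such patterns therefore come with the choice of list and are no result of these data. The first window listed for each gene by RefSeq (GRCm38.p6), from 250 bases before to 50 after the start, was searched on both strands for 7 patterns, and 30 of the 41 interferon-stimulated genes had one. The core of the interferon-stimulated response element, GAAANNGAA, was held by 19 of these 30 windows (63.3%), against 8.57% of all 27025 genes with a window, and by 4 of 15 of the MHC class I list. The kB pattern GGNNTTTCC was held by 9 of 14 windows of the NF-kB list (64.3%) and 5 of 14 of the CXC list (35.7%), but by 2 of 13 of the CC list, against 5.72% of all. The hypoxia response core ACGTG was held by 9 of 15 windows of the hypoxia list, against 19.7% of all. The sterol response core CACNCCAC was held by 3 of 18 windows of the sterol list (16.7%, against 6.12% of all) and the CCAAT box by 16 of 18 (88.9%, against 37.9%). The CArG frame was held by 16 of 18 windows of the contractile list, against 73.0% of all, and TTCNNNGAA, the GAS pattern, by 10 of 30 of the interferon list (33.3%, against 8.47%). Of the genes holding the pattern of their list, 19 of 19 interferon, 6 of 9 NF-kB, 5 of 5 CXC, 2 of 2 CC and 8 of 9 hypoxia genes rose. Of all genes with a window on these lists, 29 of 30, 11 of 14, 6 of 14, 6 of 13 and 10 of 15 rose. Whether holders rose more often was not tested. The patterns were chosen after the values were seen. A match is a description of letters and not a site in use, and the patterns can overlap each other. In the following stretches, which end at the base before the start and are written 5′ to 3′ on the strand of the gene, capitals mark the interferon core in *Isg15* (GRCm38.p6, chr4:156200819-156200968, minus strand) and *Ifit3* (chr19:34583329-34583528, plus strand), the interferon core and then the kB pattern in *Cxcl10* (chr5:92348890-92349119, minus strand), the kB pattern in *Nfkbia* (chr12:55492648-55492767, minus strand), *Cxcl1* (chr5:90891125-90891244, plus strand) and *Cxcl2* (chr5:90903779-90903898, plus strand), and the hypoxia core in *Car9* (chr4:43506906-43507025, plus strand). The stretches of *Cxcl1*, *Cxcl2* and *Car9* run past the start of the gene in the annotation used for the counts, and in *Car9* the marked core lies inside the gene by that annotation.
Isg15: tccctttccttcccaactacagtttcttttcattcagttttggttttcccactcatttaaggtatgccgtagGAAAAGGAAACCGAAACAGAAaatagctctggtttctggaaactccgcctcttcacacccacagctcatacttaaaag
Ifit3: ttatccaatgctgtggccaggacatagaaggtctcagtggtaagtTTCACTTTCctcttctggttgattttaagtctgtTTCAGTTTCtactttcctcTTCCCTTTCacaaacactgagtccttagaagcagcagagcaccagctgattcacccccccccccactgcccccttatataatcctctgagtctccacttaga
Cxcl10: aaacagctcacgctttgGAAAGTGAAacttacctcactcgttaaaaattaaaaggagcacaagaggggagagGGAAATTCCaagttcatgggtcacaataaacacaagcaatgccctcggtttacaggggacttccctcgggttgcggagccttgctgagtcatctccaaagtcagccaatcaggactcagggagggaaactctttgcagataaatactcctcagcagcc
Nfkbia: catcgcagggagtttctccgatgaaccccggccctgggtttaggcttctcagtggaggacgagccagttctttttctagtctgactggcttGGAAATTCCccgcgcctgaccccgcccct
Cxcl1: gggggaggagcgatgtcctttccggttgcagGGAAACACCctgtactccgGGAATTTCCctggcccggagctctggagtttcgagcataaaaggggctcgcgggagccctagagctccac
Cxcl2: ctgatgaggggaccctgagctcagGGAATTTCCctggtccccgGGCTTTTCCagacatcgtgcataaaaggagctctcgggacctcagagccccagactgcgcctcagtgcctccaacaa
Car9: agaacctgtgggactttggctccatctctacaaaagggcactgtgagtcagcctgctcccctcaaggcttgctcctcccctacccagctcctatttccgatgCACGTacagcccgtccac
In *Isg15* the 3 matches overlap between 78 and 58 bases before the start, and in *Ifit3* 3 separate matches lie between 155 and 94 bases before it. The adjacent genes *Cxcl1* and *Cxcl2* each hold 2 matches of the kB pattern, the first of them 89 and 96 bases before the start.

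Complement genes changed in both directions, with the largest rises in the central and alternative pathway genes *C3* and *Cfb*. On the list 10 of 20 genes rose and 7 fell. *C3*, the central component (ENSMUSG00000024164, GRCm38 chromosome 17, 57203970 to 57228136), had 16.2, 20.8 and 20.0 CPM in TFc and 3396, 4532 and 4645 CPM in TFs (log2 fold change 7.79, SE 0.60, adjusted p = 1.87e-07), with TFs replicate 1 the lowest of the TFs libraries. *Cfb*, which forms the alternative pathway convertase, had 6.05, 2.63 and 4.73 CPM in TFc and 1306, 830.1 and 780.1 CPM in TFs (log2 fold change 7.75, SE 0.76, adjusted p = 1.96e-06). *C4b*, *C1ra*, *C1s1*, *C2*, *C7*, *Serping1* and *Clu* also rose. The falls were *C1qa*, *C1qb* and *C1qc*, which macrophages make, the receptors *C3ar1* and *C5ar1*, *Cd59a* and *Masp1*. The call of *C5ar1* was lost without TFs replicate 3 (adjusted p = 0.0529), and that of *C7* without TFc replicate 1 (adjusted p = 0.0574). The C1q genes and the receptors moved with the macrophage markers given above, whose part in these falls was not tested.

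**Figure D3:**
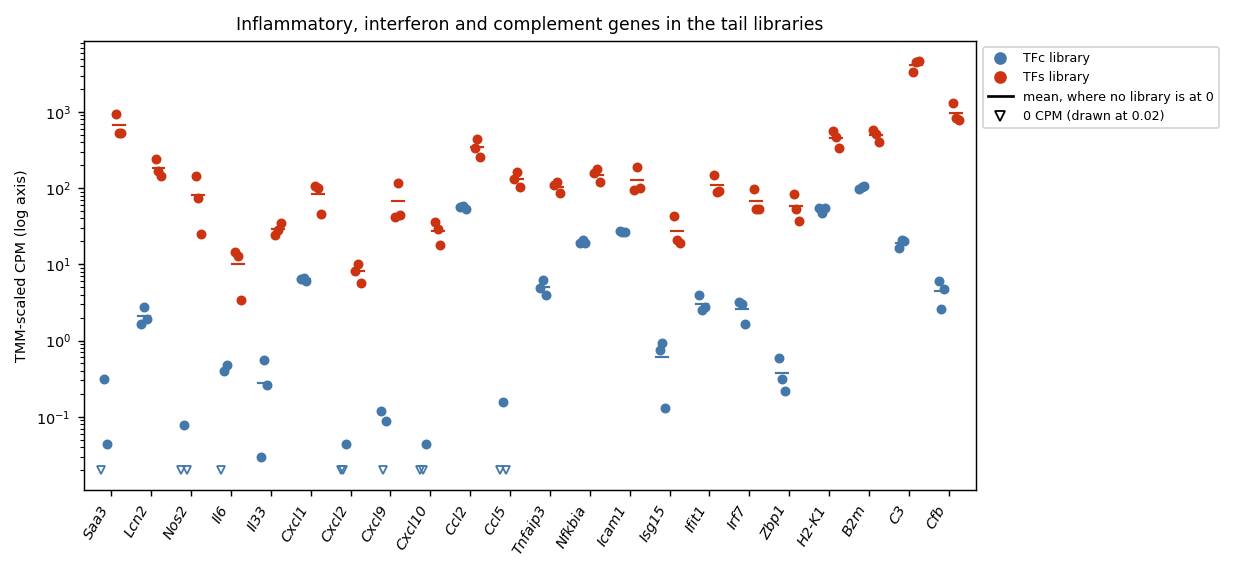
CPM (log axis) of inflammatory, interferon, MHC class I and complement genes in each TFc (blue) and TFs (red) library, with bars at the mean of the 3 libraries where none is at 0 and open triangles for libraries at 0 CPM. Every gene shown is higher in all 3 TFs than in all 3 TFc libraries, as for *C3*, which averages 19.0 CPM in TFc and 4191 CPM in TFs.

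Many collagen and basement membrane genes rose, while the abundant chain *Col1a1* did not pass the test and *Col12a1* fell. Of 22 fibrillar and fibril-associated collagen genes 9 rose and 3 fell, with a median of 0.85, and there was 1 fall when any 1 library other than TFs replicate 1 was left out. *Col3a1*, the fibrillar collagen of early granulation tissue (ENSMUSG00000026043, GRCm38 chromosome 1, 45311538 to 45349706), had 1186, 1157 and 1193 CPM in TFc and 10456, 8773 and 9714 CPM in TFs (log2 fold change 3.03, SE 0.47, adjusted p = 0.000146). *Col1a2* had 3352, 3359 and 3370.0 CPM in TFc and 9228, 8479 and 8035 CPM in TFs (log2 fold change 1.35, SE 0.35, adjusted p = 0.00672), while *Col1a1*, its partner chain in collagen I, had 7709.8, 7619.6 and 7763 CPM in TFc and 15975, 12203 and 11271 CPM in TFs and did not pass the test (log2 fold change 0.77, SE 0.37, adjusted p = 0.106). *Col12a1*, a fibril-associated collagen, had 4364, 4389.9 and 4512 CPM in TFc and 2193, 1679.8 and 1772 CPM in TFs (log2 fold change -1.23, SE 0.41, adjusted p = 0.0281), and this call was lost when any 1 library other than TFs replicate 1 was left out (adjusted p = 0.0554 to 0.0853). Of 24 basement membrane genes 10 rose and 2 fell, or 1 without TFs replicate 1 or TFc replicate 1, with a median of 0.98. *Col4a1* had 646, 599 and 646 CPM in TFc and 1836, 1704 and 1655 CPM in TFs (log2 fold change 1.46, SE 0.14, adjusted p = 1.42e-06), and *Col18a1*, the source of endostatin, 21.8, 21.1 and 23.1 CPM in TFc and 471, 527 and 454 CPM in TFs (log2 fold change 4.46, SE 0.41, adjusted p = 9.32e-07). The crosslinking enzyme *Lox* had 5026, 5239.9 and 5371 CPM in TFc and 3828, 2687 and 2662 CPM in TFs and did not pass the test (log2 fold change -0.77, SE 0.34, adjusted p = 0.0863), whereas *Loxl2* rose to 624 CPM from 224 CPM (log2 fold change 1.48, SE 0.26, adjusted p = 0.000343), and 5 of 25 genes of this group were higher and 2 lower.

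Periostin, tenascin C and several matrix metalloproteinase genes rose, and thrombospondin 1 and the CCN genes *Ccn1*, *Ccn2* and *Ccn3* fell. *Thbs1*, which encodes thrombospondin 1, had 19180.0, 19391 and 19840.0 CPM in TFc and 1698, 1616 and 1780.0 CPM in TFs (log2 fold change -3.52, SE 0.25, adjusted p = 1e-07). *Postn*, which encodes periostin (ENSMUSG00000027750, GRCm38 chromosome 3, 54361109 to 54391037), had 11.2, 11.7 and 11.1 CPM in TFc and 717, 685 and 960.0 CPM in TFs (log2 fold change 6.12, SE 0.54, adjusted p = 6.82e-07), and *Tnc*, which encodes the wound protein tenascin C, 868, 859 and 855 CPM in TFc and 3015, 2251 and 1781 CPM in TFs (log2 fold change 1.45, SE 0.36, adjusted p = 0.00525). *Ccn2* and *Ccn1*, known targets of YAP, fell with log2 fold changes of -2.70 and -1.78. In all 7 of 24 matricellular genes rose (29.2%) and 4 fell (16.7%). Among proteases and their inhibitors 12 of 31 rose and 4 fell. *Mmp3*, stromelysin 1, had 9.67, 11.3 and 12.6 CPM in TFc and 5342, 3154 and 3231 CPM in TFs (log2 fold change 8.45, SE 1.10, adjusted p = 2.79e-05), and *Mmp13*, a collagenase, 1.16, 1.96 and 2.28 CPM in TFc and 533, 459.6 and 392 CPM in TFs (log2 fold change 8.03, SE 0.65, adjusted p = 3.08e-07). *Mmp9*, a gelatinase, had 0.801, 1.02 and 0.526 CPM in TFc and 86.4, 91.6 and 65.2 CPM in TFs (log2 fold change 6.67, SE 0.49, adjusted p = 1.33e-07). Of the small leucine-rich proteoglycans, *Dcn*, which encodes decorin, had 37.8, 47.9 and 42.6 CPM in TFc and 638, 594 and 676 CPM in TFs (log2 fold change 3.90, SE 0.56, adjusted p = 7.23e-05), and *Lum*, which encodes lumican, 10.2, 14.2 and 11.4 CPM in TFc and 95.05, 182 and 194 CPM in TFs (log2 fold change 3.72, SE 0.77, adjusted p = 0.00144), and 5 of 13 of them rose and 2 fell, or 0 fell when any 1 tail library was left out.

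Contractile genes of the myofibroblast fell. Of 22 tested, 11 were lower and 1 higher (2 without TFs replicate 1), with a median of -1.07. *Acta2*, smooth muscle alpha-actin (ENSMUSG00000035783, GRCm38 chromosome 19, 34241090 to 34255590), had 1068, 1037 and 1089 CPM in TFc and 333, 142 and 133 CPM in TFs (log2 fold change -2.39, SE 0.34, adjusted p = 6.62e-05). *Tagln*, transgelin, had 347, 356 and 371 CPM in TFc and 77.8, 43.1 and 43.9 CPM in TFs (log2 fold change -2.71, SE 0.30, adjusted p = 5.8e-06). *Cnn1*, calponin 1, was among the 12 largest falls of all protein-coding genes, with 97.6, 94.3 and 105.1 CPM in TFc and 3.64, 2.95 and 2.80 CPM in TFs (log2 fold change -4.99, SE 0.42, adjusted p = 4.58e-07), and *Lmod1* had 79.4, 76.2 and 72.6 CPM in TFc and 6.37, 3.50 and 5.55 CPM in TFs (log2 fold change -3.89, SE 0.35, adjusted p = 8.74e-07). TFs replicate 1 kept the highest level of *Acta2*, *Tagln* and *Cnn1* among the TFs libraries. Targets of YAP and TEAD, which report cell spreading and stiffness, gave 6 of 22 lower and 2 higher, or 1 higher without TFs replicate 1 or any 1 TFc library. The share of rises, 9.09%, lay below the 11.0% of all genes tested, and that of falls, 27.3%, above 5.53%. *Ankrd1* had 41.3, 37.4 and 38.8 CPM in TFc and 4.33, 1.59 and 0.636 CPM in TFs (log2 fold change -4.21, SE 0.49, adjusted p = 1.05e-05). None of the TFs libraries reached the level of culture in any of these genes. The TGF-beta list gave 7 of 24 lower and 1 higher. *Tgfb1* itself had 40.3, 33.5 and 37.3 CPM in TFc and 30.6, 31.7 and 28.7 CPM in TFs and did not pass the test, and *Tgfb3* had 397, 399 and 384 CPM in TFc and 96.7, 99.4 and 126 CPM in TFs (log2 fold change -1.87, SE 0.29, adjusted p = 0.000153). *Smad7* and *Smad6*, the inhibitory SMADs that the pathways induce as feedback, fell with log2 fold changes of -1.85 and -2.70.

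**Figure D4:**
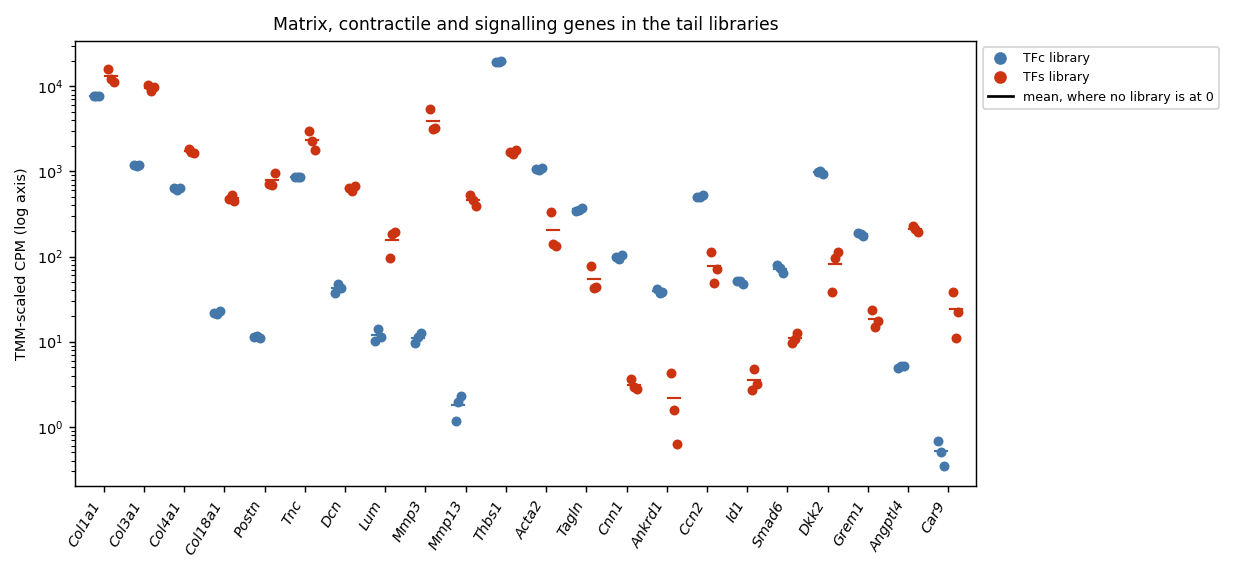
CPM (log axis) of matrix, contractile and signalling genes in each TFc (blue) and TFs (red) library, with bars at the mean of 3 libraries. *Mmp13* and *Postn* rise, *Thbs1*, *Cnn1* and *Dkk2* fall, and *Col1a1* is higher in all 3 TFs libraries although its change did not pass the test.

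On the lists of BMP ligands, antagonists and Id genes and of Wnt ligands and modulators, falls outnumbered rises. On the BMP list 8 of 25 genes fell and 5 rose, and the rises were 2 without TFc replicate 1, TFc replicate 2 or TFs replicate 3 and 3 without TFs replicate 1. *Id1*, a direct target of BMP signalling, had 51.9, 52.2 and 47.8 CPM in TFc and 2.73, 4.81 and 3.18 CPM in TFs (log2 fold change -3.82, SE 0.28, adjusted p = 1.3e-07), and the antagonist *Grem1*, gremlin 1, 187, 183 and 176 CPM in TFc and 23.7, 14.9 and 17.3 CPM in TFs (log2 fold change -3.29, SE 0.42, adjusted p = 2.41e-05). *Nog*, which encodes the antagonist noggin, had 8.51, 7.49 and 9.25 CPM in TFc and 0.428, 0.636 and 0.551 CPM in TFs (log2 fold change -3.95, SE 0.50, adjusted p = 2.18e-05). *Bmp4* had 7.92, 8.59 and 8.28 CPM in TFc and 4.33, 6.63 and 7.04 CPM in TFs and did not pass the test, and *Bmp2* rose from 0.593 to 5.21 CPM (log2 fold change 3.13, SE 0.78, adjusted p = 0.00508). On the Wnt list 9 of 27 fell (33.3%) and 4 rose (14.8%), against 5.53% and 11.0% of all genes tested. The rises were 2 without TFs replicate 3 or without TFc replicate 3. The inhibitor *Dkk2* had 981, 1014 and 942 CPM in TFc and 38.4, 95.9 and 114 CPM in TFs (log2 fold change -3.56, SE 0.39, adjusted p = 5.83e-06), lowest in TFs replicate 1, and *Dkk3* had 417, 424 and 430.1 CPM in TFc and 109, 138 and 155 CPM in TFs (log2 fold change -1.66, SE 0.32, adjusted p = 0.000803). *Wnt5a* had 44.7, 46.0 and 49.4 CPM in TFc and 42.6, 41.7 and 44.1 CPM in TFs, with a log2 fold change of -0.12.

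Secreted growth factors changed in both directions, with 9 of 32 higher (28.1%) and 10 lower (31.25%), against 11.0% and 5.53% of all genes tested. *Angptl4*, which inhibits lipoprotein lipase and responds to hypoxia and PPAR ligands, had 4.95, 5.14 and 5.13 CPM in TFc and 229, 209 and 195 CPM in TFs (log2 fold change 5.38, SE 0.18, adjusted p = 8.18e-11), and the libraries of each group lay close together. *Vegfa* had 77.7, 71.3 and 73.8 CPM in TFc and 377, 222 and 257 CPM in TFs (log2 fold change 1.94, SE 0.29, adjusted p = 8.56e-05). *Egf*, which the distal tubule makes in quantity, had 0.831, 0.628 and 0.657 CPM in TFc and 45.9, 12.4 and 10.7 CPM in TFs (log2 fold change 5.00, SE 0.71, adjusted p = 6.22e-05), highest in TFs replicate 1, the library with the highest tubule sums. The part of tubule RNA in this rise, which is among those counted for the list, was not tested. *Fgf2* fell with 34.9, 30.4 and 32.7 CPM in TFc and 5.35, 6.09 and 5.98 CPM in TFs (log2 fold change -2.49, SE 0.20, adjusted p = 3.33e-07). Among IGF-binding proteins *Igfbp3* had 45.9, 42.9 and 47.7 CPM in TFc and 381, 371 and 331 CPM in TFs (log2 fold change 2.99, SE 0.59, adjusted p = 0.000962), *Igfbp5* 118, 104 and 109 CPM in TFc and 766, 1313 and 1403 CPM in TFs (log2 fold change 3.39, SE 0.48, adjusted p = 6e-05) and *Igfbp2* 261, 276 and 264 CPM in TFc and 31.3, 63.4 and 66.8 CPM in TFs (log2 fold change -2.31, SE 0.22, adjusted p = 1.37e-06), so that members of this family moved in opposite directions.

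Genes of fibroblast identity moved in both directions, with 10 of 34 higher and 7 lower and a median of 0.16. *Pdgfra*, the receptor that marks most resident fibroblasts, had 124, 130.02 and 126 CPM in TFc and 483, 541 and 508 CPM in TFs (log2 fold change 2.01, SE 0.35, adjusted p = 0.000364), while *Pdgfrb* had 298, 296 and 289 CPM in TFc and 308, 269 and 288 CPM in TFs with overlapping groups. *Dpt*, which encodes dermatopontin, had 2.70, 1.88 and 2.72 CPM in TFc and 32.1, 70.6 and 67.95 CPM in TFs (log2 fold change 4.54, SE 0.68, adjusted p = 0.000106), *Pi16*, a marker of adventitial fibroblasts, 1.60, 1.80 and 1.58 CPM in TFc and 20.9, 23.3 and 46.2 CPM in TFs (log2 fold change 4.18, SE 0.79, adjusted p = 0.000743), and *Fap*, a marker of activated fibroblasts, 1.31, 2.63 and 1.62 CPM in TFc and 43.1, 39.1 and 51.5 CPM in TFs (log2 fold change 4.60, SE 0.47, adjusted p = 2.64e-06). *S100a4* fell, with 462, 456 and 454 CPM in TFc and 95.2, 104 and 90.3 CPM in TFs (log2 fold change -2.24, SE 0.30, adjusted p = 3.35e-05), and so did *Vim* (log2 fold change -1.06, SE 0.13, adjusted p = 1.49e-05).

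Of the posterior *Hox* genes that tail cells expressed, *Hoxc13*, *Hoxc12* and *Hoxb13* fell but stayed above the floor in every TFs library. *Hoxc13* had 42.6, 36.8 and 41.6 CPM in TFc and 8.13, 8.72 and 9.07 CPM in TFs (log2 fold change -2.22, SE 0.25, adjusted p = 7.81e-06), *Hoxc12* 23.3, 20.8 and 19.5 CPM in TFc and 5.56, 5.90 and 7.50 CPM in TFs (log2 fold change -1.74, SE 0.28, adjusted p = 0.000471) and *Hoxb13* 68.1, 64.9 and 65.0 CPM in TFc and 30.4, 30.5 and 35.2 CPM in TFs (log2 fold change -1.04, SE 0.22, adjusted p = 0.00218). *Hoxa13* had 10.3, 12.001 and 12.6 CPM in TFc and 6.47, 8.40 and 8.05 CPM in TFs and did not pass the test. *Hoxc10* had 25.8, 26.2 and 28.3 CPM in TFc and 18.8, 17.4 and 17.2 CPM in TFs, which did not pass it either. On the whole list 4 of 34 *Hox* genes fell (11.8%) and 5 rose (14.7%), against 5.53% and 11.0% of all genes tested. The rises were 2 without TFc replicate 1 and 3 without any 1 TFs library. They were *Hoxa5*, *Hoxd3*, *Hoxd8*, *Hoxd9* and *Hoxd11*, all with at most 2.63 CPM in any tail library. *Hoxa5* had 0.742, 0.628 and 1.62 CPM in TFc and 1.82, 2.63 and 2.16 CPM in TFs, and its call was lost without TFs replicate 2 or 3 or without TFc replicate 1 or 2 (adjusted p = 0.0534 to 0.114). The call of *Hoxd3* was lost without replicate 1 or 3 of TFs or of TFc (adjusted p = 0.0982 to 0.138). That of *Hoxd9* was lost without TFs replicate 1 or 2 or TFc replicate 1 or 3 (adjusted p = 0.0756 to 0.175). It was also lost with scaling by library size alone, without the filter on low counts and with the replicate block (adjusted p = 0.0560 to 0.0672). Among other positional factors 6 of 31 fell (19.4%) and 3 rose (9.68%, below the share of all genes tested). The falls were 2 or 3 when any 1 tail library was left out. *Dlx3* had 12.2, 12.6 and 10.1 CPM in TFc and 1.77, 0.863 and 1.27 CPM in TFs (log2 fold change -3.16, SE 0.54, adjusted p = 0.000305) and *Prrx2* 64.2, 67.4 and 55.1 CPM in TFc and 16.3, 29.2 and 27.3 CPM in TFs (log2 fold change -1.36, SE 0.36, adjusted p = 0.00786), whereas *Tbx4* had 7.12, 7.26 and 8.02 CPM in TFc and 7.49, 7.95 and 8.48 CPM in TFs with overlapping groups.

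Hypoxia response genes rose. Of 18 hypoxia response genes 11 rose and 0 fell, with a median of 1.35. *Car9*, carbonic anhydrase 9 (ENSMUSG00000028463, GRCm38 chromosome 4, 43506966 to 43513729), had 0.682, 0.510 and 0.351 CPM in TFc and 38.4, 10.9 and 22.6 CPM in TFs (log2 fold change 5.50, SE 0.64, adjusted p = 8.93e-06), and *Egln3*, an oxygen-sensing prolyl hydroxylase that HIF induces, 1.25, 1.18 and 0.482 CPM in TFc and 45.9, 17.4 and 18.7 CPM in TFs (log2 fold change 4.77, SE 0.67, adjusted p = 5.59e-05). Both were highest in TFs replicate 1. Of the glycolysis list 6 of 21 genes rose and 0 fell, among them *Pfkfb3* with 17.1, 17.7 and 17.1 CPM in TFc and 124, 117 and 116 CPM in TFs (log2 fold change 2.78, SE 0.20, adjusted p = 1.19e-07), whereas the glucose transporter *Slc2a1* and the enzyme *Ldha* passed the adjusted p but not the fold limit, with log2 fold changes of 0.98 and 0.68.

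Sterol synthesis genes fell. Of the list of sterol synthesis and uptake, known targets of SREBP2, 13 of 25 were lower and 0 higher, with a median of -1.07. *Sqle*, squalene epoxidase, had 61.5, 59.5 and 60.04 CPM in TFc and 27.3, 33.1 and 17.7 CPM in TFs (log2 fold change -1.21, SE 0.26, adjusted p = 0.00188), lowest in TFs replicate 3. In the opposite direction 4 of 10 efflux genes rose, or 2 without TFs replicate 3 or any 1 TFc library. *Abca1*, the cholesterol exporter, had 141, 130.1 and 131 CPM in TFc and 284, 266 and 330.1 CPM in TFs (log2 fold change 1.13, SE 0.36, adjusted p = 0.0226), and its call was lost without TFs replicate 3 or any 1 TFc library (adjusted p = 0.0541 to 0.0688). *Scd1*, stearoyl-CoA desaturase, fell with 414, 426 and 414 CPM in TFc and 63.5, 87.5 and 60.2 CPM in TFs (log2 fold change -2.57, SE 0.24, adjusted p = 1.06e-06).

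None of the 76 nuclear and 13 mitochondrial respiratory chain genes was called by edgeR or by DESeq2, but the medians of the 2 groups lay on opposite sides of 0. The nuclear genes had a median log2 fold change of -0.42, and 42 passed the adjusted p alone with a lower level and 0 with a higher one (52 and 0 at an unadjusted p under 0.05). Leaving out any 1 tail library other than TFc replicate 2 called 1 to 3 of the nuclear genes lower. The mitochondrial genes had a median of 0.56, with 10 genes higher and 0 lower by the adjusted p alone (11 and 0 unadjusted). *Cox4i1*, a nuclear subunit of cytochrome c oxidase, had 97.8, 99.7 and 98.3 CPM in TFc and 69.9, 67.1 and 61.4 CPM in TFs (log2 fold change -0.58, SE 0.09, adjusted p = 0.000132) and *mt-Co1*, its mitochondrial partner, 2736, 2756 and 2895 CPM in TFc and 4029.7, 4418 and 3977 CPM in TFs (log2 fold change 0.57, SE 0.13, adjusted p = 0.00261). Of 76 cytosolic ribosomal protein genes and 34 proteasome genes none was called by either tool, with medians of -0.24 and -0.31, and 12 and 15 of them passed the adjusted p alone with a lower level (21 and 19 at an unadjusted p under 0.05). Over all 16577 genes tested, 3350 passed the adjusted p alone with a lower level and 3083 with a higher one. The share of ribosomal protein genes lay below that of all genes, and the share of proteasome genes above it.

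Genes of amino acid and one-carbon metabolism fell more often than they rose. Of the ATF4 targets for amino acid and one-carbon metabolism 9 of 22 fell (40.9%) and 3 rose (13.6%), the latter 1 without TFs replicate 1. Of all genes tested 5.53% fell and 11.0% rose. *Asns*, asparagine synthetase, had 47.3, 52.0 and 49.5 CPM in TFc and 16.3, 12.04 and 11.8 CPM in TFs (log2 fold change -1.89, SE 0.14, adjusted p = 1.73e-07), and *Chac1*, a glutathione-degrading enzyme, was among the 12 largest falls with 5.25, 6.16 and 5.04 CPM in TFc and 0.642, 0.136 and 0.0848 CPM in TFs (log2 fold change -4.30, SE 0.66, adjusted p = 0.000119). Targets of the aryl hydrocarbon receptor and Nrf2, which respond to foreign compounds and oxidants, changed in both directions, and 8 of 24 fell and 6 rose. *Cyp1a1* had 2.64, 1.69 and 2.72 CPM in TFc and 0 CPM in every TFs library, at least 16.6-fold lower, and *Nqo1* 20.0, 21.2 and 20.9 CPM in TFc and 3.26, 2.95 and 3.35 CPM in TFs (log2 fold change -2.70, SE 0.21, adjusted p = 1.97e-07). The metallothionein genes on this list rose, *Mt1* with 10.1, 9.65 and 9.12 CPM in TFc and 334, 170.2 and 140.2 CPM in TFs (log2 fold change 4.48, SE 0.51, adjusted p = 8.2e-06) and *Mt2* with 3.44, 3.14 and 3.24 CPM in TFc and 290.3, 197 and 133 CPM in TFs (log2 fold change 5.98, SE 0.63, adjusted p = 3.76e-06). The p53 list gave 6 of 28 lower and 1 higher (0 without TFs replicate 2 or 3 or TFc replicate 2 or 3), with *Cdkn1a*, which encodes p21, at 127, 130.2 and 134 CPM in TFc and 79.0, 79.4 and 69.7 CPM in TFs, inside the fold limit (log2 fold change -0.78, SE 0.08, adjusted p = 4.52e-06). Of 21 genes of the unfolded protein response 1 fell (4.76%, below the 5.53% of all genes tested). It was *Herpud1*, a degradation factor of the endoplasmic reticulum, and this call was lost without TFs replicate 2.

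Immediate early genes respond within minutes and also to tissue dissociation. On their list, which also holds heat shock genes, 10 of 31 were higher and 2 lower. The rises were 5 without TFs replicate 1. *Fos* had 18.7, 16.7 and 17.7 CPM in TFc and 259.5, 217 and 192 CPM in TFs (log2 fold change 3.65, SE 0.25, adjusted p = 5.84e-08), and *Fosb* 2.25, 1.73 and 1.49 CPM in TFc and 81.1, 62.1 and 68.5 CPM in TFs (log2 fold change 5.25, SE 0.27, adjusted p = 5.28e-09). The heat shock genes *Hspa1a* and *Hspa1b* did not pass the test, with log2 fold changes of 0.77 and 0.19.

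Mitosis genes were highest in TFs replicate 1, and their calls depended on it. The mitosis list had 2 of 32 genes higher and 0 lower, and its summed level was 2029, 1030.0 and 776 CPM in TFs replicates 1, 2 and 3 and 788 to 823 CPM in TFc. Without TFs replicate 1 the count of rises was 0, without TFc replicate 1 or 2 it was 1, without TFs replicate 2 it was 7 and without TFs replicate 3 it was 12. *Mki67*, the proliferation marker, had 147, 147 and 154 CPM in TFc and 464, 229 and 173 CPM in TFs, inside the fold limit (log2 fold change 0.95, SE 0.30, adjusted p = 0.0211). On the replication list 1 of 38 genes was higher and 2 lower, the former 0 without TFs replicate 1 or TFc replicate 1 or 2 and 2 without TFs replicate 3, and *Rrm2*, a subunit of ribonucleotide reductase, had 95.6, 96.2 and 98.7 CPM in TFc and 31.5, 18.03 and 11.8 CPM in TFs (log2 fold change -2.25, SE 0.32, adjusted p = 6.77e-05). Clustered histone genes, many of them near-identical copies, gave 4 of 54 higher and 1 lower. The rises were 1 without TFs replicate 1 or TFc replicate 1, 2 without TFc replicate 2 or 3 and 8 without TFs replicate 3. With all libraries the shares of rises on the mitosis, replication and histone lists were 6.25%, 2.63% and 7.41%, below the 11.0% of all genes tested.

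The 12 largest falls among protein-coding genes at 5 CPM or more came from no single group. Besides *Cnn1*, *Ankrd1* and *Chac1* they were *Galnt9*, *Eef1a2*, *Rnf39*, *Olfm2*, *Cck*, *Acta1*, *Atp12a*, *Dsp* and *Coch*. *Cck*, which encodes the peptide cholecystokinin, had 35.1, 35.3 and 35.1 CPM in TFc and 1.55, 1.09 and 0.975 CPM in TFs (log2 fold change -4.88, SE 0.54, adjusted p = 1.3e-05). *Coch*, which encodes the secreted protein cochlin, had 118, 118 and 129.8 CPM in TFc and 4.71, 7.13 and 7.12 CPM in TFs (log2 fold change -4.26, SE 0.33, adjusted p = 2.2e-07). *Dsp*, which encodes the desmosomal plaque protein desmoplakin, had 87.7, 83.5 and 84.3 CPM in TFc and 3.21, 3.59 and 5.34 CPM in TFs (log2 fold change -4.39, SE 1.06, adjusted p = 0.00422), and *Acta1*, skeletal alpha-actin, 6.94, 7.49 and 5.52 CPM in TFc and 0.321, 0.0908 and 0.297 CPM in TFs (log2 fold change -4.80, SE 0.64, adjusted p = 3.65e-05). In these 4 genes the TFc libraries lay close together, and each TFs library was lower by more than 10 times.

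Where the tail response differed in size or direction was asked by testing the difference between the responses (transplanted minus cultured, on the log2 scale) of tail and of heart or kidney fibroblasts. Such a difference does not make a change particular to tail cells. The tail response differed from that of heart in 3776 of 16577 genes (22.8%) at an adjusted p of 0.05 (edgeR interaction contrast), 2101 above and 1675 below. This split depended on the setting, with 782 above and 1094 below where the log2 difference also had to pass 1, and 2458 above and 1395 below with scaling by library size alone. Without KFs replicate 3, which entered the shared estimate of the spread, the count against heart was 5461 of 16923 genes. The tail response differed from that of kidney in 1835 genes (11.1%), 1007 above and 828 below. Without KFs replicate 3 it did so in 3620 of 16923 genes (21.4%), and without TFc replicate 3 in 1198. Both contrasts use the same 6 tail libraries. In 796 genes the tail response lay on the same side of both, also without KFs replicate 3, and 247 of these were called in the tail comparison. Of the 160 called higher in TFs, 143 had a response above those of heart and kidney, and of the 87 called lower, 73 had one below. The call and the difference both contain the change from TFc to TFs, so this agreement in direction was partly built in and is no separate result.

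The 8 genes furthest above both responses were *Ccl20*, *Mmp13*, *Cxcl10*, *Apod*, *Tgtp2*, *Heyl*, *Ifi47* and *Aldh1a2*, and inflammatory and interferon genes were among them. *Mmp13* averaged 1.80 CPM in TFc and 461 in TFs, against 0.459 and 0.832 in HFc and HFs and 1.22 and 4.41 in KFc and KFs. Its response minus that of heart was 7.34 on the log2 scale (SE 1.32, adjusted p = 0.0011), and minus that of kidney 6.17 on the log2 scale (SE 0.88, adjusted p = 0.000447). *Ccl20*, which attracts cells that bear CCR6, averaged 16.2 CPM in TFs and at most 0.478 in the other 5 groups. *Cxcl10* reached 27.7 CPM in TFs, 6.20 in HFs and 4.98 in KFs from a level at the floor in TFc, so that its fitted tail response depended on the prior count, as did those of *Tgtp2* and *Heyl*. *Apod*, which encodes apolipoprotein D, averaged 1.37 and 115 CPM in TFc and TFs, 3.22 and 14.6 in HFc and HFs and 1.42 and 0.925 in KFc and KFs. *Ifi47*, an interferon-inducible GTPase, and *Aldh1a2*, which makes retinoic acid, were lower in TFc than in HFc and KFc. *Ifi47* averaged 0.376, 8.81 and 2.04 CPM in TFc, HFc and KFc and 15.1, 5.40 and 3.34 CPM in TFs, HFs and KFs. *Aldh1a2* averaged 1.57 CPM in TFc against 61.2 in HFc and 82.1 in KFc, and 51.7, 83.3 and 56.0 CPM in TFs, HFs and KFs. *Heyl*, a Notch target, averaged 0.0344 CPM in TFc, 10.4 in HFc and 0.868 in KFc, and 7.52, 30.8 and 5.93 CPM in TFs, HFs and KFs. *Tgtp2* averaged 0.0344, 0.996 and 0.518 CPM in TFc, HFc and KFc and 34.9, 22.3 and 9.36 CPM in TFs, HFs and KFs. Its level was thus higher after transplantation in all 3 sources, with log2 fold changes of 4.52 in heart and 4.14 in kidney. It has a near-identical copy, *Tgtp1*, and its counts are uncertain for that reason.

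Among the genes furthest below were *F5*, *Dio3*, *Dsp*, *Slpi*, *Kcnj2*, *Draxin* and *Cpm*, and all of them were higher in TFc than in HFc and KFc. *Dio3*, which encodes the deiodinase that inactivates thyroid hormone, averaged 163 CPM in TFc against 1.28 in HFc and 0.904 in KFc, and 19.9, 6.44 and 9.33 CPM in TFs, HFs and KFs. It fell in tail cells, and its log2 fold changes in heart and kidney were 2.31 and 3.36. The tail response minus that of heart was -5.34 on the log2 scale (SE 0.51, adjusted p = 6.03e-06), and minus that of kidney -6.39 on the log2 scale (SE 0.52, adjusted p = 5.78e-06). *Slpi*, a secreted inhibitor of leukocyte proteases, averaged 8.12 and 31.3 CPM in TFc and TFs, and 3.26 and 1.81 CPM in HFs and KFs from levels at the floor in HFc and KFc, so that the difference depended on the prior count. *F5*, coagulation factor V, averaged 16.5 and 5.16 CPM in TFc and TFs and 0.155 and 19.0 in HFc and HFs. *Kcnj2*, a potassium channel, averaged 32.6 and 9.93 CPM in the tail groups and 0.421 and 14.3 in the heart groups. For *Dsp* and *Cpm*, a membrane carboxypeptidase gene, KFs replicate 3 stood far above KFs replicates 1 and 2, and without it the difference from kidney moved from -6.60 to -2.74 and from -3.83 to -2.17.

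**Figure D5:**
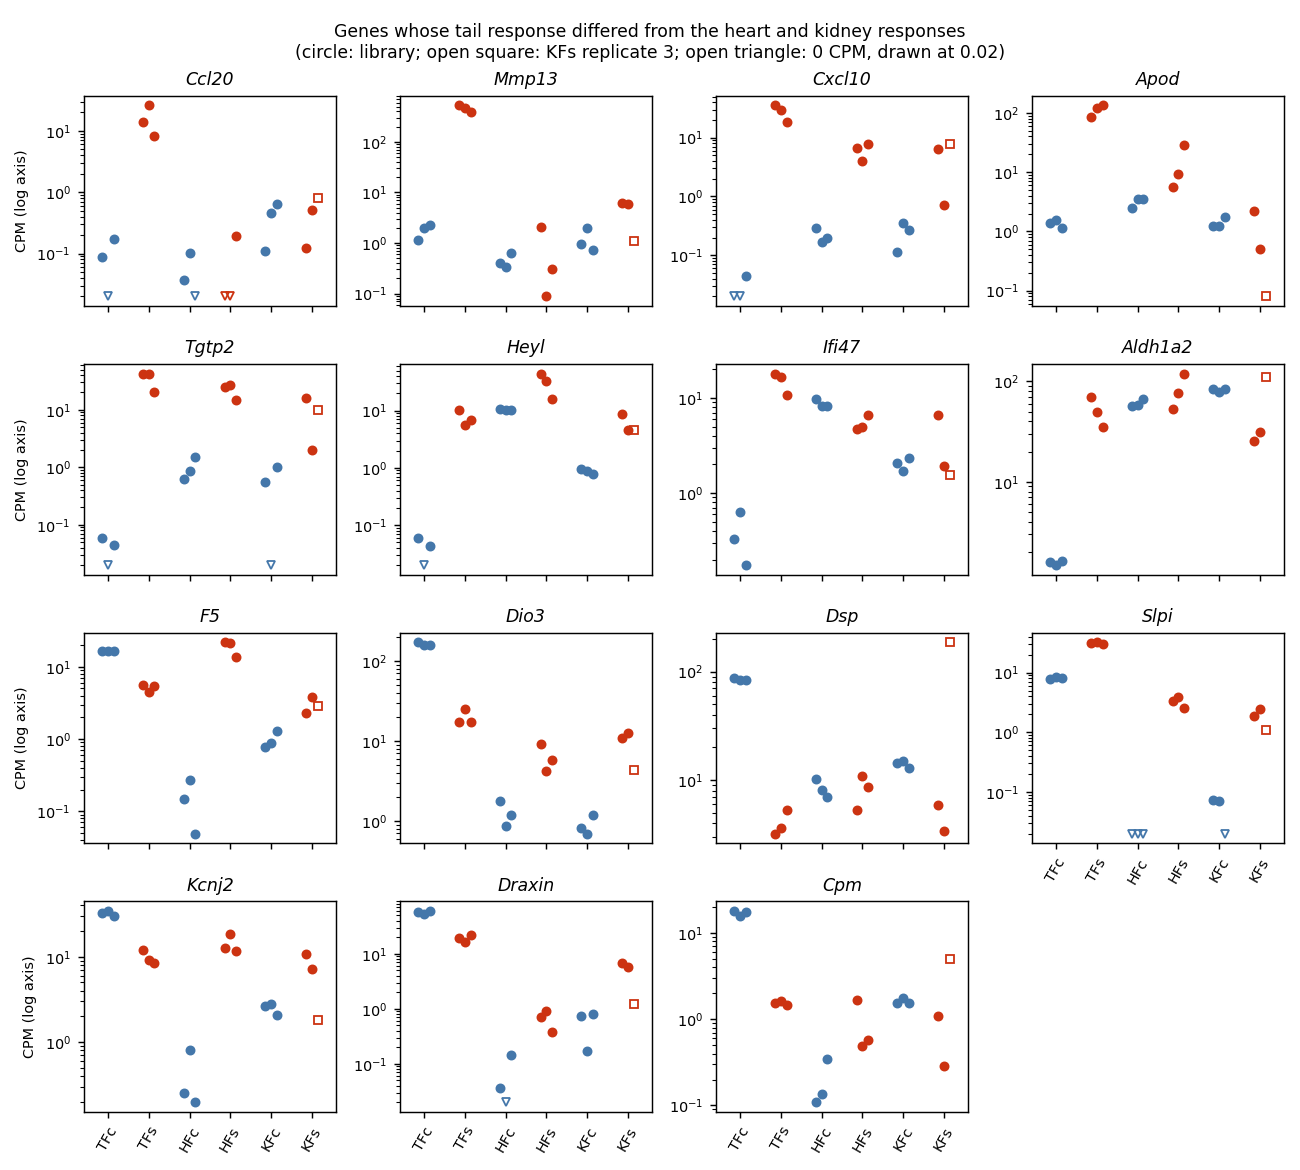
CPM (log axis) of the genes named for their difference in response in each library of the 6 groups, cultured in blue and transplanted in red, with KFs replicate 3 as an open square and libraries at 0 as open triangles. In the upper 2 rows the tail response lies above those of heart and kidney, as for *Mmp13* with 461 CPM in TFs, and in the lower 2 rows below them, as for *Dio3* with 163 CPM in TFc.

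Shared parts of the response were read from the tail, heart and kidney values of single genes side by side, since no test of similarity was made. *Acta2* fell with log2 fold changes of -2.39 in tail, -1.85 in heart and -2.18 in kidney, *Fosb* rose with 5.25, 6.14 and 5.70, and *Angptl4* with 5.38, 5.59 and 5.75. For *Spp1*, which encodes osteopontin, the tail value of 0.59 did not pass the test, while the heart and kidney values of 4.32 and 3.37 did. The difference passed the interaction test against heart (adjusted p = 0.000371) and against kidney (adjusted p = 0.00545, 0.00133 without KFs replicate 3). *Col4a1* rose by 1.46 in tail against -0.36 in heart and -0.60 in kidney (adjusted p of the differences 1.34e-05 and 1.46e-05, the latter 3.33e-07 without KFs replicate 3). *B2m* rose by 2.29 against 0.52 and 0.02 (adjusted p of the differences 0.00014 and 6.21e-05, the latter 1.93e-05 without KFs replicate 3).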

How the data were processed

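RNA of 18 libraries was sequenced as single 75 bp reads after stranded total RNA library preparation. Per the study's methods, the authors trimmed the reads and estimated gene counts with RSEM and Bowtie2 on GRCm38, while the submitters' processing notes name mm9, so that coordinates and names here follow GENCODE vM21 (GRCm38), matched to 37607 of 38924 gene IDs. The deposited expected counts were already whole numbers and were used as they are. Genes that passed edgeR's filterByExpr were fitted in 1 model over the 6 groups (edgeR 4.0.16 with TMM scaling and the quasi-likelihood test, R 4.3.3), with Benjamini-Hochberg adjustment across every gene tested. Calls needed an adjusted p under 0.05 and a fold change of more than 1 on the log2 scale in either direction. The SE was derived from the F statistic of the test, as the absolute log2 fold change over its root. DESeq2 1.42.0 and other scalings, filters and left-out libraries served as alternatives. Summaries and plots were made in Python 3.11.15 with pandas 2.3.3 and matplotlib 3.10.9, and the fit was tested on simulated data.

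The 3 libraries of a group are biological replicates per the study's methods, but the labels do not tie them to animals. The SEs and p-values rest on a spread estimated over all 18 libraries within their 6 groups, heart and kidney included. A gene can miss the test although its tail groups do not overlap, as *Col1a1* does. Same-numbered TFs and TFc libraries did not deviate together (correlations of -0.0423, -0.0131 and -0.0257) and were treated as unpaired. Replicates differed by more than sampling noise. The groups and gene lists were chosen with earlier results of these data known. Genes were named as role anchors of a list, as the 3 largest rises or falls of a list, as the 12 largest rises and falls of all, or as the 8 largest differences in response on each side, and others, such as the remaining complement genes, *Ifi27*, *Ifi35*, *Ifit3*, *Hspa1a* and *Hspa1b*, were named after their values were seen. A few named genes are not reported here.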

Additional observations from a re-analysis of the deposited data

Results flagged for a closer look

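Results are listed here because the effect of transplantation in tail cells differed from that in heart or kidney cells by a test of the difference itself (edgeR's quasi-likelihood test of the interaction, adjusted p of 0.05). This was the case for 3776 genes against heart and 1835 against kidney, and for 796 genes against both in the same direction, also without KFs replicate 3. Both sets share the tail libraries.

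Among the genes whose tail response lay furthest above the others, the differences of the log2 responses from heart and kidney were 6.98 and 7.23 for *Ccl20*, 7.34 and 6.17 for *Mmp13*, and 5.86 and 6.34 for *Cxcl10*. They were 4.17 and 7.02 for *Apod*, 5.20 and 5.58 for *Tgtp2*, and 5.94 and 4.74 for *Heyl*. For *Ifi47* they were 6.00 and 4.60, and for *Aldh1a2* 4.59 and 5.59.

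Among those furthest below, the differences were -8.48 and -3.27 for *F5* and -5.34 and -6.39 for *Dio3*. They were -4.37 and -6.60 for *Dsp*, -7.42 and -3.19 for *Slpi*, and -6.71 and -3.10 for *Kcnj2*. For *Draxin* they were -5.10 and -4.56, and for *Cpm* -5.68 and -3.83. *Cxcl10*, *Tgtp2* and *Heyl* were at or under the floor of 3 counts in all TFc libraries, *Ccl20*, *Slpi* and *Draxin* in all HFc libraries and *Slpi* in all KFc libraries, and those differences depend on the prior count. Without KFs replicate 3 the kidney difference of *Dsp* was -2.74 and that of *Cpm* -2.17.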

How the results depend on the processing

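Of 2743 genes called in the tail comparison, with the share of rises at 66.6%, 2654 were shared with DESeq2 (2948 called), and no setting called a gene in the opposite direction. With the replicate number as a block 2626 were called, 2588 of them shared. The labels do not state whether same-numbered libraries share a preparation, so whether this block matches the design is not known. Without a limit on the fold change 6433 genes passed, 3083 higher and 3350 lower, and rises were 47.9%. The test against the fold change limit gave 1063, 757 higher and 306 lower. Leaving out 1 tail library gave 2356 to 2455 genes, 1504 to 1636 higher and 811 to 855 lower. Leaving out 1 library of the groups compared, KFs replicate 3 apart, gave 2892 to 3499 genes that differed from heart, and 1198 (without TFc replicate 3) to 2501 (without KFs replicate 1) that differed from kidney. At an adjusted p of 0.01 the tail response differed from heart in 1904 genes and from kidney in 767, and with a log2 difference beyond 1 in 1876 and 980. Without KFs replicate 3 the tail comparison called 3089 genes, and the tail response differed from heart in 5461 and from kidney in 3620. In the cases where the count moved by more than 1.5 times the cause was not tested, apart from the stricter limits.

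A few genes with log2 fold changes near 0 and no call changed sign. *Pdgfrb* had 0.0070 with DESeq2, 0.0070 with its size factors in edgeR and 0.0052 in the 6 tail libraries alone, and -0.080 to 0.016 with 1 library left out. *Tbx4* had -0.019 after thinning to the smallest library. With 1 library left out *Hspa1b* ranged from -0.20 to 0.39 and *Ifi27* from -0.047 to 0.16. Beyond these, the floor of 3 counts limits the folds of genes absent from TFc.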
